A study of Homo sapiens with 17 samples.

Results

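DZH_2 and Maraviroc were compared at the concentration labelled IC20, at which the label gives an inhibition of 20%. The cells were MDA-MB-231, a mesenchymal, triple-negative human breast cancer cell line. The comparison rests on 8 of the 17 arrays of the series: 2 of cells given DZH_2 IC20, 2 of cells given DMSO, 2 of cells given Maraviroc IC20 and 2 of cells given ethanol, chosen by their titles. Treatment lasted 48 h and began 24 h after seeding, and total RNA was hybridised to Affymetrix arrays as biotinylated cRNA. Values are log2 signals of 17687 genes, and no genotype or transgene distinguishes the groups. The sources used here do not give the concentrations, so the doses are matched by the labelled effect and not by amount. Whether the inhibition was equal in these cultures was not tested. Whether the arrays of a group stand for separate cultures is not stated in the labels. Unless stated otherwise, the p-values and standard errors below come from a fit to 12 arrays. These are the 8 compared and the MDA-MB-231 arrays of both compounds at the higher dose, IC50. The p-values therefore reflect how far apart the arrays of a group lie over all 12, and that spread may be technical. It was widest for Maraviroc IC50, with an SD between replicates of 0.546. How many genes passed depended on this choice of arrays, as given further below.

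Maraviroc is a drug that blocks chemokine signalling. DZH_2 is known here only by its code name. Each compound was read against its own solvent, DZH_2 against DMSO and Maraviroc against ethanol, and the difference of the responses is the DZH_2 change minus the Maraviroc change. For each gene it equals the direct difference of the treated groups minus the difference between DMSO and ethanol, so the part that the solvents hold can be read off.

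Several programmes recur below. Cells make cholesterol by a chain of enzymes from acetyl-CoA, and the transcription factors SREBF1 and SREBF2 switch these genes on when membrane sterol is low. When sterol is plentiful, its oxidised forms activate the liver X receptors (LXR), which raise the cholesterol exporters ABCA1 and ABCG1. The aryl hydrocarbon receptor is a ligand-activated factor that induces the CYP1 enzymes and TIPARP. Genes for DNA replication and mitosis are transcribed in cells that are cycling.

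The marker genes matched the labelled line in part. Of 19 mesenchymal markers, 14 were above the negative control level (5.936, below which 75% of 612 negative control probe sets lay) on all 8 arrays, among them VIM, CD44, AXL, MSN and CAV1, while CDH1, ESR1, PGR, KRT5, TRIM29 and the leukocyte gene PTPRC were below it on all 8. Of 19 luminal and epithelial markers, 8 were above it on all 8 arrays, KRT8, KRT18 and KRT19 among them, and 6 below it on all 8, while EPCAM lay between 5.18 and 6.86 and so on both sides of it. Of 10 basal markers 3 were above and 7 below on all 8, and of 13 leukocyte and endothelial markers 2 (CD14 and CSF1R) were above and 7 below. Array medians ran from 7.006 to 7.084, interquartile ranges from 4.37 to 4.648, and the SD between replicates was 0.277 to 0.366 in the 4 groups. The number of arrays limits the precision.

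Against its solvent, DZH_2 raised CYP1B1, CYP1A1 and TIPARP, inflammatory and AP-1 genes such as RELB and JUNB, and enzymes of sterol synthesis led by HMGCS1, and it lowered ABCG1, ABCA1 and genes of DNA replication and mitosis. No gene passed the threshold for Maraviroc against ethanol. For the difference of the responses itself, no gene passed at an adjusted p under 0.05 (0% of 17687 genes, limma with Benjamini-Hochberg adjustment), with a smallest adjusted p of 0.095 for ABCA1, CYP1B1 and ABCG1.

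At an unadjusted p under 0.05, 1273 genes differed between the responses, 598 higher with DZH_2 (3.38% of all genes) and 675 lower (3.82%). In 5016 genes (28.4%) both DZH_2 changes lay above both Maraviroc changes, and in 4738 (26.8%) both lay below. At the adjusted threshold, DZH_2 against DMSO gave 77 genes higher (0.435%) and 77 lower (0.435%). That count of 154 rests on few arrays: it was 15 without DZH_2 replicate 2, 5 without DMSO replicate 1 and 2 without DMSO replicate 2, where a lone array is assumed to vary like the other groups. Maraviroc against ethanol gave 0 (0%), with 309 at an unadjusted p under 0.05 and 0 under each alternative setting tried. A count of 0 for Maraviroc does not show that it left the cells unchanged. The median standard error of a log2 difference was 0.3095 for a pair of groups and 0.4377 for the difference of the responses.

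**Figure D1:**
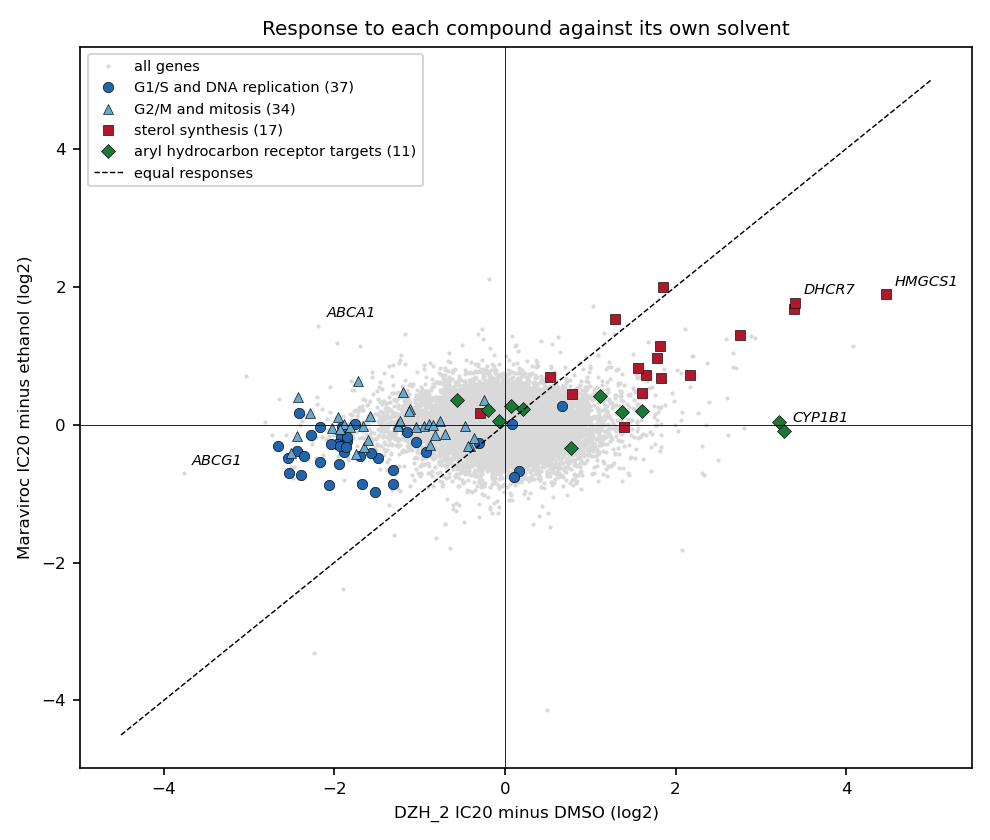
Log2 change with DZH_2 IC20 against DMSO (horizontal axis) and with Maraviroc IC20 against ethanol (vertical axis), 1 point per gene, means of 2 arrays per group. Replication and mitosis genes lie mostly to the left near a Maraviroc change of 0, sterol synthesis genes to the right and mostly above 0, and CYP1B1 at 3.27 and -0.09.

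Among the aryl hydrocarbon receptor genes, CYP1B1, an enzyme that oxidises polycyclic compounds and oestrogens, had log2 signals of 9.82 and 8.80 with DZH_2, 5.99 and 6.09 with DMSO, 6.59 and 6.48 with Maraviroc, and 6.93 and 6.32 with ethanol. The DZH_2 arrays stood apart from the other 6, which lay close together. The difference of the responses was 3.36 ± 0.50 (SE, 2 arrays per group, 95% interval 2.28 to 4.44, unadjusted p = 1.6e-05), made of a DZH_2 change of 3.27 (adjusted p = 0.0024) and a Maraviroc change of -0.09. The direct difference was 2.78 (adjusted p = 0.056) and DMSO minus ethanol was -0.58, so most of the difference lay between the treated cells.

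CYP1A1, the classical induced enzyme of this receptor, read 9.97 and 8.95 with DZH_2 against 6.31 and 6.17 with DMSO, 6.94 and 6.77 with Maraviroc and 6.82 and 6.81 with ethanol. Again both DZH_2 arrays were above all others, and the arrays of that group were themselves about 1 log2 unit apart. Between the responses the difference was 3.18 ± 0.69 and the direct difference 2.61 ± 0.49, with a DZH_2 change of 3.22 (adjusted p = 0.015). TIPARP, an ADP-ribosyltransferase that feeds back on the receptor, read 11.86 and 11.72 with DZH_2, 10.11 and 10.25 with DMSO, 10.25 and 9.50 with Maraviroc, and 9.43 and 9.90 with ethanol. Its DZH_2 change was 1.61 (adjusted p = 0.034), the difference of the responses 1.41 ± 0.43 and the direct difference 1.92 ± 0.30. Here DMSO was above ethanol by 0.51, so the solvents took from the difference of the responses, whereas they added to it for CYP1B1 and CYP1A1.

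Of 11 measured genes of this list, 3 were higher with DZH_2 than with DMSO past the adjusted threshold and none lower past it. For a higher response to DZH_2, 5 had an unadjusted p under 0.05. The list's median difference of the responses was 0.70 against 0.01 for all genes, and its median direct difference 0.46. ARNT, the partner protein of the receptor, had a difference of 1.12 ± 0.41 of which the solvents made up more than the treated cells, with a direct difference of 0.46 and a solvent difference of -0.65. NQO1, a quinone reductase that the receptor and NRF2 both induce, had a difference of 1.19 ± 0.44 and a direct difference of 1.01.

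The promoters of CYP1A1 and TIPARP are shown because these genes rose with DZH_2 in the treated cells and the start-proximal sequence holds the GCGTG core that the receptor is known to bind. Whether the receptor binds at these matches was not tested, and sequence further upstream was not searched. Both are RefSeq sequence of GRCh38.p14, read 5′ to 3′ on the gene's strand up to the base before the transcription start, with the match in capitals: chr15:74725529-74725628 on the minus strand for CYP1A1 and chr3:156674410-156674589 on the plus strand for TIPARP.
CYP1A1: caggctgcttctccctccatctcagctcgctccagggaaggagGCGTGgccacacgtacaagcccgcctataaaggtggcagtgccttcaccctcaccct
TIPARP: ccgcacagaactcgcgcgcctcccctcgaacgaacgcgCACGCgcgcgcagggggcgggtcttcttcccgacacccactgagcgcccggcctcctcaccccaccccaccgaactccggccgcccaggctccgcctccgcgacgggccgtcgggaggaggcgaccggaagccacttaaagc
The CYP1A1 match begins at base -57 from the start, on the gene's own strand. The TIPARP match begins at -142 and lies on the opposite strand, so it reads CACGC as printed. Searched on both strands, GCGTG occurred in 5 of 11 windows of 9 matched genes of this list (45.5%) and in 12832 of 35116 windows of the same length over all genes (36.5%). CYP1B1 had no window in the table.

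For NF-kB and AP-1 genes most of the difference lay between the treated cells. JUNB, an AP-1 transcription factor, read 9.14 and 9.53 with DZH_2, 7.47 and 7.54 with DMSO, 7.41 and 7.63 with Maraviroc, and 7.60 and 8.10 with ethanol. Both DZH_2 arrays lay above the other 6. Its DZH_2 change was 1.83 (adjusted p = 0.018), the difference of the responses 2.16 ± 0.42 (unadjusted p = 1.9e-04) and the direct difference 1.81 ± 0.29. RELB, a subunit of the alternative NF-kB pathway, read 10.34 and 10.54 with DZH_2 and 8.41 to 9.17 on the other 6 arrays. Its difference of the responses was 2.04 ± 0.42 and its direct difference 1.84 ± 0.30. NFKBIA, the NF-kB inhibitor that NF-kB itself induces, rose by 1.62 with DZH_2 (adjusted p = 0.036), with a difference of the responses of 1.75 ± 0.44 and a direct difference of 1.42.

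Of 23 NF-kB and inflammatory genes, 22 had a positive difference of the responses and 6 an unadjusted p under 0.05, all higher with DZH_2. The median was 0.65 and the median direct difference 0.68, and 11 had an unadjusted p under 0.05 directly (681 genes, or 3.85% of all, were higher directly at this p, and 691, or 3.91%, lower). Against DMSO, 2 of the 23 rose past the adjusted threshold and none fell past it. IL1B, an inflammatory cytokine, had a wide interval, 2.01 with 0.58 to 3.45. Of 25 immediate early and AP-1 genes, 20 were positive, with a median difference of the responses of 0.77 and a median direct difference of 0.70. JUND, another AP-1 subunit, rose by 1.95 (adjusted p = 0.024) with DZH_2, with a difference of the responses of 1.501 ± 0.47.

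Genes of DNA replication and mitosis had lower signals with DZH_2 than in the other 3 groups. RRM1, the large subunit of ribonucleotide reductase, read 10.47 and 9.73 with DZH_2, 12.40 and 12.62 with DMSO, 12.24 and 12.50 with Maraviroc, and 12.48 and 11.92 with ethanol. The DZH_2 arrays lay below all others and the other 3 groups overlapped. RRM1 fell with DZH_2 by 2.41 (adjusted p = 0.0096), and the difference of the responses was -2.58 ± 0.47, the direct difference -2.27 ± 0.34 and the solvent difference 0.31. TPX2, a spindle assembly factor that activates Aurora A, read 10.825 and 10.002 with DZH_2 and 12.10 to 12.70 on the other 6 arrays. Its difference of the responses was -2.07 ± 0.45 and its direct difference -2.20 ± 0.32.

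EZH2, the methyltransferase of Polycomb complex 2 and a gene that rises in cycling cells, read 9.52 and 9.31 with DZH_2, 11.34 and 11.45 with DMSO, 10.66 and 11.02 with Maraviroc, and 10.998 and 10.504 with ethanol. Between the responses EZH2 differed by -2.07 ± 0.37 (unadjusted p = 1.1e-04), of which -1.43 lay between the treated cells and 0.64 between the solvents. CSE1L, the export receptor that returns importin alpha to the cytoplasm, read 11.32 and 11.19 with DZH_2 and 12.30 to 13.23 on the other arrays, with a difference of the responses of -2.02 ± 0.36 and a direct difference of -1.37. For both genes the 2 DZH_2 arrays lay below all others, and the DMSO arrays were the highest 2 of the 8.

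Of 37 G1/S and DNA replication genes, 33 had a negative difference of the responses and 13 an unadjusted p under 0.05, all lower with DZH_2. The median difference of the responses was -1.55, the median direct difference -1.52 and the median solvent difference -0.18. Of 34 G2/M and mitosis genes, all 34 were negative, 17 at an unadjusted p under 0.05, with medians of -1.32, -1.56 and -0.07. In 24 of the 37 and 27 of the 34, both DZH_2 changes lay below both Maraviroc changes. Directly, 31 of the 37 and 30 of the 34 had an unadjusted p under 0.05. The Maraviroc change had a median of -0.38 over the first list and -0.03 over the second, against -0.01 over all genes. Against DMSO, 10 and 5 of the members fell past the adjusted threshold and none rose past it. DIAPH3, a formin of the contractile ring, had a difference of -2.82 ± 0.67 and MCM8, a helicase subunit, -2.35 ± 0.55. In bulk RNA, fewer cycling cells and less of these RNAs per cell cannot be told apart.

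Genes of homologous recombination and repair followed, with 12 of 13 negative, 7 of them at an unadjusted p under 0.05, and a median difference of the responses of -1.47. XRCC2, a protein of homologous recombination, read 7.045 and 6.004 with DZH_2, 9.11 and 9.07 with DMSO, 8.51 and 8.57 with Maraviroc, and 9.10 and 8.27 with ethanol. It fell with DZH_2 by 2.56 (adjusted p = 0.02), and its difference of the responses was -2.42 ± 0.59 and its direct difference -2.02 ± 0.42. The median direct difference of the list was -1.10 and its median solvent difference 0.34, DMSO being above ethanol.

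**Figure D2:**
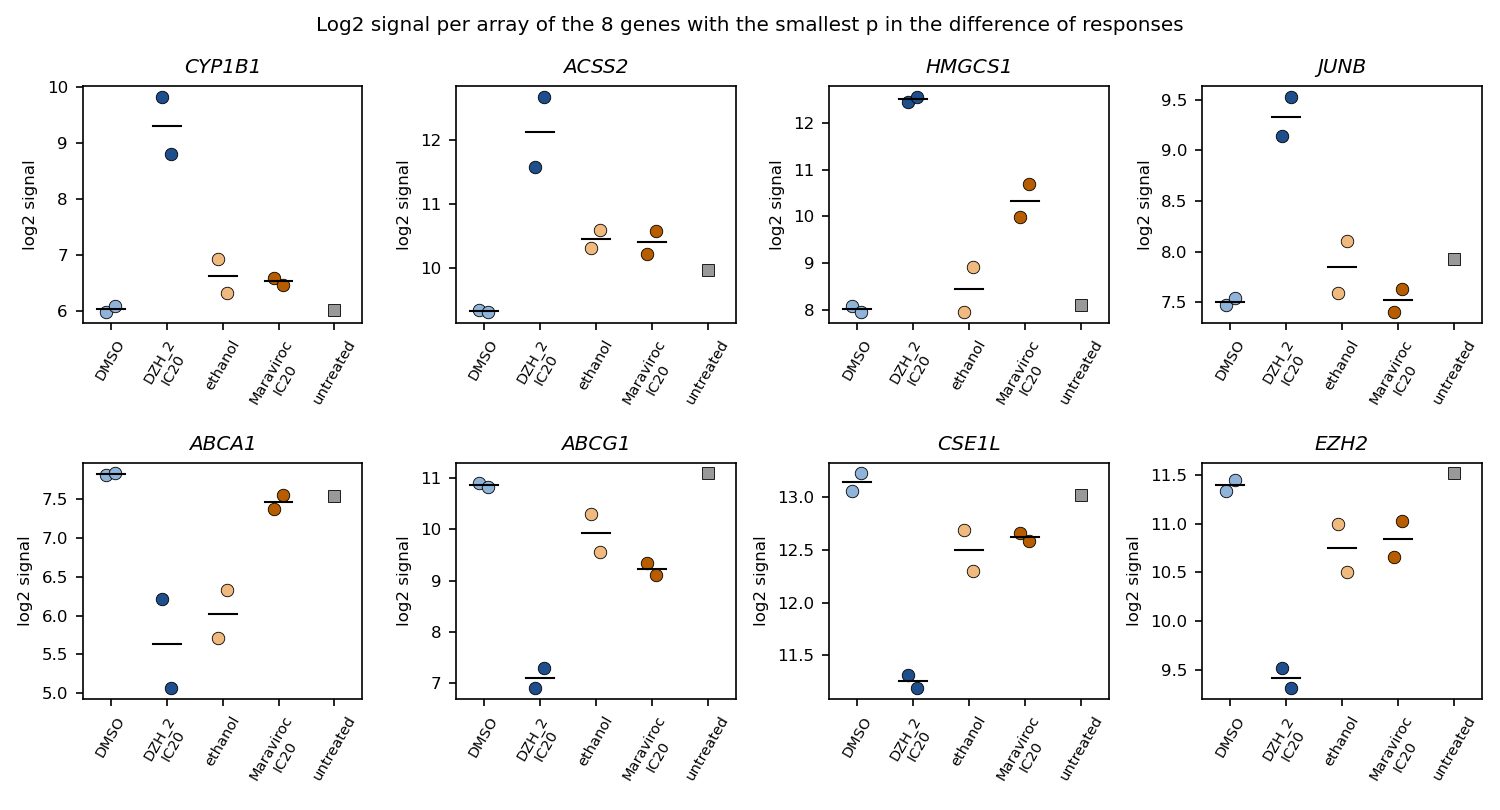
Log2 signal on each array for the 4 genes with the smallest p in each direction of the difference of the responses, by group, with bars at the group means and the 1 untreated array as a square. The DZH_2 arrays of CYP1B1, ACSS2, HMGCS1 and JUNB lie above those of all other groups, and those of ABCA1 overlap with ethanol.

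Of 17 measured sterol synthesis genes, 16 had a positive DZH_2 change, 8 of them past the threshold, and 16 a positive Maraviroc change, none past it. In 13 of the 17 both DZH_2 changes lay above both Maraviroc changes, and in 2 below. HMGCS1, which makes HMG-CoA at the head of the pathway, read 12.44 and 12.56 with DZH_2, 8.09 and 7.97 with DMSO, 9.98 and 10.69 with Maraviroc, and 7.97 and 8.92 with ethanol. The solvent arrays overlapped, Maraviroc lay above them and DZH_2 above Maraviroc. The DZH_2 change was 4.47 (adjusted p = 2.4e-04) and the Maraviroc change 1.89 (adjusted p = 1). The difference of the responses was 2.58 ± 0.49 (unadjusted p = 1.8e-04) and the direct difference 2.16 ± 0.35, with a solvent difference of -0.41. HSD17B7, a later enzyme of the pathway, had a difference of 1.45 ± 0.44 and a direct difference of 1.13.

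DHCR7, the last enzyme of a branch that leads to cholesterol, differed mainly between the solvents. It read 13.49 and 13.89 with DZH_2, 10.37 and 10.20 with DMSO, 12.97 and 13.28 with Maraviroc, and 10.86 and 11.86 with ethanol. The ethanol arrays were above the DMSO arrays and the treated groups lay near each other. DZH_2 raised it by 3.40 (adjusted p = 0.0024) and the Maraviroc change was 1.77. Between the responses DHCR7 differed by 1.63 ± 0.51, of which 0.56 (95% interval -0.22 to 1.34) lay between the treated cells and -1.07 between the solvents. FDPS, which makes farnesyl diphosphate, read 13.18 and 13.02 with DZH_2 and 13.01 and 13.25 with Maraviroc, so the treated arrays overlapped. Its DZH_2 change was 1.78 (adjusted p = 0.016) and its Maraviroc change 0.97, and the difference of 0.81 ± 0.39 came from the solvents alone, with a direct difference of -0.03 (-0.63 to 0.57) and a solvent difference of -0.84. CYP51A1, the lanosterol demethylase, differed in neither way, at -0.14 (-1.70 to 1.42) between the responses and -0.06 (-1.17 to 1.04) directly, intervals that leave room for more than a 1 log2 unit difference.

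Of 17 measured sterol synthesis genes, 13 had a positive difference of the responses, 6 of them at an unadjusted p under 0.05 (HMGCS1, HSD17B7, DHCR7, LSS, MVD and MVK). The median was 0.93, but the median direct difference was 0.24, with 3 genes higher and 1 (ACAT2) lower at an unadjusted p under 0.05, and the median solvent difference was -0.51. Against DMSO, 8 of the 17 rose past the adjusted threshold with DZH_2 and none fell past it, with a median change of 1.78. The median Maraviroc change was 0.83, with 11 genes higher at an unadjusted p under 0.05 and none past the threshold. Over all 17687 genes, 149 were higher with Maraviroc than with ethanol at this p. Against the 1 untreated array, the median of the list was 0.41 with ethanol and -0.11 with DMSO, taken on group means. The ethanol arrays were not alike in this. HMGCS1 read 7.97 and 8.92 with ethanol against 8.12 untreated, and IDI1 9.97 and 11.49 against 10.05. For FDPS (12.25 and 12.07 against 11.70) and ACAT2 (10.08 and 9.68 against 9.47) both ethanol arrays lay above the untreated one. How far 1 ethanol array carries the median of the list was not tested.

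**Figure D3:**
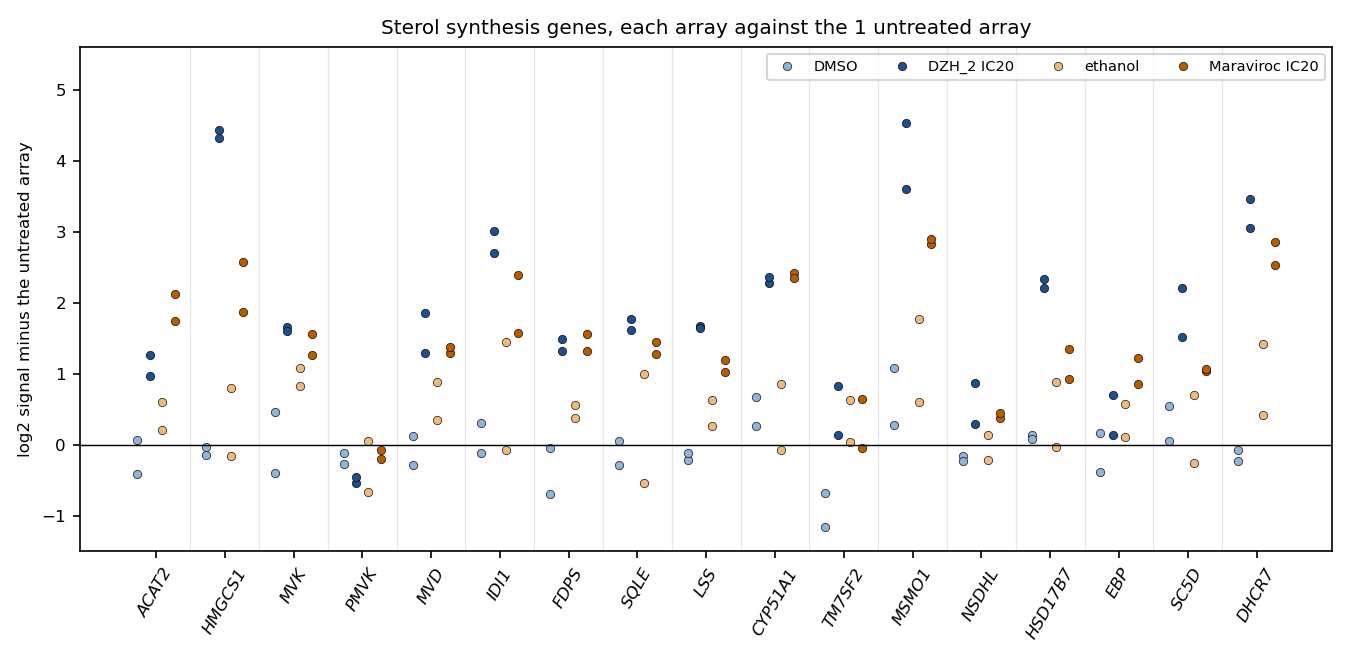
Log2 signal of each of the 8 arrays minus the 1 untreated array (vertical axis) for the 17 measured sterol synthesis genes in pathway order (horizontal axis), 1 point per array. The DZH_2 points stand well above Maraviroc for HMGCS1, and for FDPS and CYP51A1 the treated points overlap or touch.

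INSIG1, a sterol sensor that holds SREBF proteins in the endoplasmic reticulum and is itself an SREBF target, rose by 2.88 with DZH_2 (adjusted p = 0.0096), with a difference of the responses of 1.59 ± 0.57 and a direct difference of 1.13. SREBF2, the main activator of the sterol genes, rose by 1.54 (adjusted p = 0.033), with a difference of 0.82 ± 0.40 and a direct difference of 0.17 (-0.45 to 0.78). SREBF1, which favours fatty acid genes, went the other way, at -0.98 ± 0.39 between the responses and -0.83 directly (95% interval -1.43 to -0.23). Over the 8 measured members of the regulator list the median difference of the responses was 0.41 and the median direct difference 0.03.

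The promoter of SREBF2 is shown because SREBF2 was 1 of 2 genes in these lists whose window held the sterol regulatory element searched, TCACNCCAC. It is a form of the site that SREBF proteins bind, and other forms were not searched. The sequence is RefSeq, GRCh38.p14, chr22:41832955-41833104 on the plus strand, 5′ to 3′ up to the base before the start, with the match in capitals beginning at -133.
SREBF2: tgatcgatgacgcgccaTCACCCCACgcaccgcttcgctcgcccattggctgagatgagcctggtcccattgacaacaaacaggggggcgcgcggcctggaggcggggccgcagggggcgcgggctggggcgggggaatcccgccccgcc
A GCGTG match on the opposite strand overlaps it. On both strands TCACNCCAC occurred in 396 of 35116 windows over all genes (1.13%), in 0 of 20 windows of 15 matched sterol synthesis genes and in 1 of 9 windows of the regulators (11.1%). The other was TIPARP, 1 of 11 windows of the receptor list (9.09%), in lower case in the sequence above. GCGTG occurred in 17 of the 20 sterol synthesis windows (85%) and in 8 of the 9 regulator windows (88.9%).

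ACSS2, which makes acetyl-CoA from acetate for lipid synthesis, had the largest difference of the fatty acid genes. It read 11.59 and 12.68 with DZH_2, 9.35 and 9.32 with DMSO, 10.23 and 10.59 with Maraviroc, and 10.32 and 10.60 with ethanol. Maraviroc and ethanol arrays overlapped, and the DMSO arrays were the lowest 2. The DZH_2 change was 2.80 (adjusted p = 0.008), the difference of the responses 2.85 ± 0.51 (unadjusted p = 9e-05), the direct difference 1.73 ± 0.36 and the solvent difference -1.13. FADS2, the delta-6 desaturase, was raised by DZH_2 by 1.61 (adjusted p = 0.036), with a difference of the responses of 1.23 ± 0.44 that the solvents held almost whole: the direct difference was 0.07 (-0.60 to 0.75) and the solvent difference -1.16. LIPG, a secreted phospholipase, had a difference of 2.94 ± 0.75 and a direct difference of 1.24. Both DMSO arrays (5.17 and 3.38) and 1 ethanol array (5.48) read below the negative control level, so the size of the first is uncertain. Over the 16 fatty acid genes the median difference of the responses was 0.63, the median direct difference 0.23 and the median solvent difference -0.39.

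The cholesterol exporters were lower with DZH_2. ABCG1 read 6.90 and 7.29 with DZH_2, 10.90 and 10.82 with DMSO, 9.34 and 9.11 with Maraviroc, and 10.30 and 9.55 with ethanol. The 4 groups did not overlap, with DMSO highest and DZH_2 lowest. It fell with DZH_2 by 3.77 (adjusted p = 3.4e-04), with a Maraviroc change of -0.70. The difference of the responses was -3.07 ± 0.45 (unadjusted p = 1.6e-05), the direct difference -2.13 ± 0.32 (adjusted p = 0.057) and the solvent difference 0.94.

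ABCA1 had the smallest p of all genes for the difference of the responses, and about as much of it lay between the solvents as between the treated cells. It read 6.22 and 5.06 with DZH_2, 7.82 and 7.83 with DMSO, 7.37 and 7.55 with Maraviroc, and 5.72 and 6.33 with ethanol, against 7.54 on the untreated array. The ethanol and DZH_2 arrays overlapped at the low end, and the Maraviroc arrays were near DMSO and untreated cells. The difference of the responses was -3.62 ± 0.49 (95% interval -4.69 to -2.55, unadjusted p = 6.7e-06), from a DZH_2 change of -2.19 (adjusted p = 0.018) and a Maraviroc change of 1.44. The direct difference was -1.82 ± 0.35 and the solvent difference 1.80 ± 0.35. The DZH_2 mean lay below the negative control level, and so did 1 ethanol array (5.72). The sizes of the DZH_2 fall, the Maraviroc change and the solvent difference are therefore uncertain.

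The LXR list was divided. Of 10 measured, 5 were positive and 5 negative, with a median difference of the responses of 0.05, and ABCA1, ABCG1 and SREBF1 were the 3 lower at an unadjusted p under 0.05. SCD, a desaturase that SREBF1 and LXR both induce, was positive at 0.90 ± 0.48, and APOE, a lipid carrier, at 0.58 ± 0.44, and neither interval excluded 0. ABCG5 and ABCG8 were near the negative controls in all 4 groups.

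The solvents themselves differed in no gene past the threshold (0%, smallest adjusted p = 0.51), but 1352 genes (7.64%) had an unadjusted p under 0.05. MSMP, a secreted microseminoprotein, had the smallest p, with 8.60 and 7.98 for DMSO against 12.17 and 15.21 for ethanol. Ethanol arrays were far above DMSO arrays and 3 log2 units apart from each other, and the solvent difference was -5.40 ± 0.92. MSMP read 10.02 and 7.55 with DZH_2 and 9.08 and 10.01 with Maraviroc, so its difference of the responses of 4.64 ± 1.30 had a direct counterpart of -0.76 (-2.76 to 1.24). CYB5R4, a cytochrome b5 reductase, had the reverse solvent difference, 1.57 ± 0.28, and a difference of the responses of -1.03 ± 0.39 against a direct difference of 0.54. In size of at least 1, DMSO differed from the untreated array in 118 genes and ethanol in 274.

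Genes of this kind reached across several programmes. CDKN1A, the p21 inhibitor of cyclin-dependent kinases, read 10.82 and 9.15 with DZH_2, 7.69 and 7.65 with DMSO, 8.60 and 9.58 with Maraviroc, and 8.99 and 10.59 with ethanol. DZH_2, Maraviroc and ethanol arrays overlapped, and the DMSO arrays lay below them. Its difference of the responses was 3.01 ± 0.81, with a direct difference of 0.89 (-0.34 to 2.13) and a solvent difference of -2.12. The same split held for CST3, a cystatin that inhibits cysteine proteases (1.67 between the responses, 0.25 direct, -1.42 solvent), for TIMP1, an inhibitor of metalloproteases (1.67, 0.49 and -1.18), and for ATG9A, an autophagy lipid scramblase (1.14, 0.00 and -1.14). MMP14, a membrane metalloprotease, stood at 1.23, 0.06 and -1.18 in the same order.

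Over all genes, 1441 had a difference of the responses of at least 1 in size, and in 377 of these (26.2%) the direct difference was of the same sign and also at least 1. In 266 (18.5%) the solvent difference was at least 1 in size with the opposite sign, and in 56 (3.89%) the direct difference pointed the other way. Read from the other side, 579 genes had a direct difference of at least 1, and 377 of them (65.1%) kept it in the difference of the responses. In 44 (7.60%) the solvents differed by at least 1 in the same sign as the direct difference, and in 16 (2.76%) the difference of the responses had the opposite sign. These counts differ in precision, since the median standard error was 0.4377 for the difference of the responses and 0.3095 for the direct difference.

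**Figure D4:**
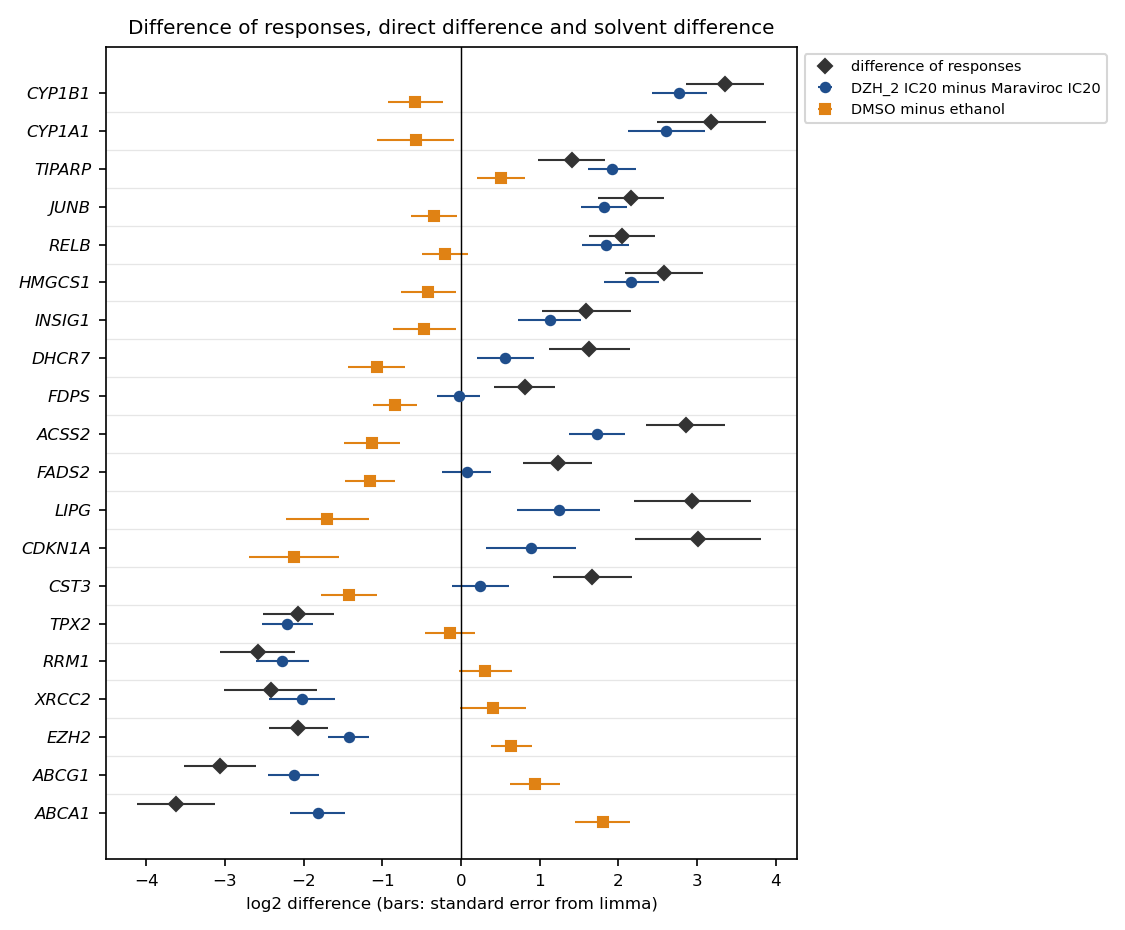
Log2 difference of the responses, direct difference of the treated groups and difference of the solvents for 20 genes, with standard errors from limma (2 arrays per group). The solvent squares lie near 0 for TPX2 and RELB, and reach about the size of the direct difference or more for ABCA1, CDKN1A, CST3, FADS2 and FDPS.

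The 26 lysosome genes had a median difference of the responses of 0.61 with 22 positive, 6 of them at an unadjusted p under 0.05, and a median direct difference of 0.22 beside a solvent difference of -0.36. CTSD, a lysosomal protease, rose by 2.67 with DZH_2 (adjusted p = 0.012), with 1.64 ± 0.55 between the responses and 1.02 directly. The 22 NRF2 and oxidative stress genes had medians of 0.71 and 0.39 with a solvent difference of 0.04, and SQSTM1, an autophagy receptor, rose by 2.19 with DZH_2 (adjusted p = 0.015) with a Maraviroc change of 0.99. GABARAPL1, an ATG8-family protein of the autophagosome, rose by 2.40 (adjusted p = 0.008), with 2.07 ± 0.45 between the responses and 1.54 ± 0.32 directly. The median over the 24 autophagy genes was 0.11 between the responses and 0.35 directly, beside a solvent difference of 0.20.

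The 28 ATF4 amino acid genes ran lower, at a median of -0.75 between the responses but -0.21 directly, with a solvent difference of 0.60. Their replicates were far apart. PSAT1, a serine synthesis enzyme, read 11.29 and 14.65 with DZH_2 and 15.63 and 13.09 with ethanol, and its difference of -3.02 had an interval of -6.19 to 0.14. The 18 hypoxia and glycolysis genes had a median of 0.44 between the responses and -0.04 directly, with a solvent difference of -0.52. Medians of the unfolded protein response, interferon response, p53 target, collagen, metalloprotease and YAP target lists lay between -0.25 and 0.24, and those of 9 cystatins and 13 lipid droplet and lipase genes were 0.49 and 0.41.

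**Figure D5:**
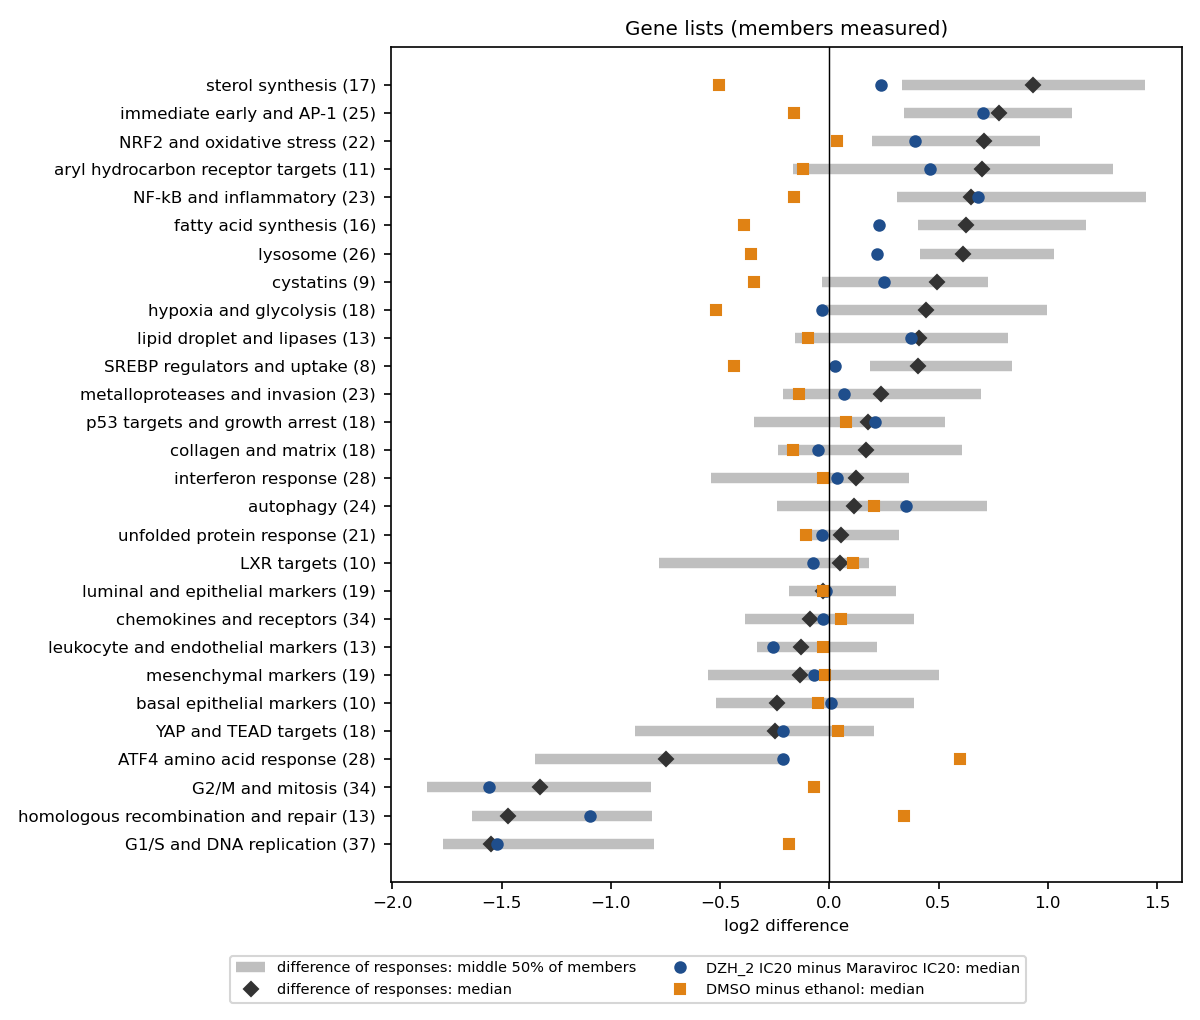
Median log2 difference of the responses (diamonds, with the middle 50% of members as bars), median direct difference (circles) and median solvent difference (squares) for the 28 gene lists, with the number of measured members in brackets. Diamonds and circles lie together for G1/S, NF-kB and AP-1 genes and apart for sterol synthesis, hypoxia and ATF4 genes.

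Of the 8 CCR chemokine receptor genes measured, CCR2 alone was not near the negative controls in all 4 groups, at 5.70 to 6.65 over the 8 arrays, and the differences of the responses ran from -0.80 for CCR4 to 0.41 for CCR6, none at an unadjusted p under 0.05. Of 34 chemokines and receptors, 22 were near the negative controls in all 4 groups, and the list's median was -0.09.

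Marker lists moved little as a whole, with median differences of the responses of -0.13 for 19 mesenchymal, -0.03 for 19 luminal, -0.24 for 10 basal and -0.13 for 13 leukocyte and endothelial genes. The summed level of the basal list was 11.46 and 11.95 with DZH_2, 13.3 and 13.0 with DMSO, 12.8 and 12.3 with Maraviroc, and 13.1 and 12.6 with ethanol, on the log2 scale. The DZH_2 arrays were the lowest 2, while 7 of the 10 basal genes, KRT5 and TRIM29 among them, were below the negative control level on all 8 arrays. ITGA6, a laminin receptor subunit of that list, fell with DZH_2 by 1.74 (adjusted p = 0.034), and CAV1, the caveolae protein, by 1.63 (adjusted p = 0.028), with differences of the responses of -1.43 ± 0.47 and -1.49 ± 0.41. The part of such markers in the other results was not tested.

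How many genes passed depended on which arrays set the spread. With the 12 arrays of the 6 replicated groups, no gene passed for the direct difference (0%, smallest adjusted p = 0.056, 1372 genes at an unadjusted p under 0.05). With the 8 arrays compared here alone, 32 genes were higher with DZH_2 (0.181%) and 48 lower (0.271%). Higher were CYP1A1, CYP1B1 and TIPARP of the receptor list, RELB, ICAM1, IL6, CXCL8 and TRAF1 of the NF-kB list, JUNB, EGR1 and DUSP1 of the AP-1 list, HMGCS1 and ACSS2. Lower were ABCG1, 4 of 37 G1/S genes, 7 of 34 G2/M genes and 3 of 13 repair genes. The difference of the responses still gave 0 genes there. With only the 2 Maraviroc IC50 arrays left out, whose replicates had an SD of 0.546, 78 genes passed directly and 4 between the responses (ABCA1, ABCG1, CYP1A1 and CYP1B1). Within the 12-array fit, 22 genes passed directly without DZH_2 replicate 1 and 1 (CYP1B1) without DZH_2 replicate 2, and ABCA1 passed between the responses without DZH_2 replicate 1.

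Near-identical genes limit part of the direct comparison. NPIPB15 and NPIPB6, of a primate-specific family of near-identical copies, were higher with DZH_2 by 1.76 and 1.62 directly, and array probes may not tell such copies apart. The smallest p among genes lower directly were those of TPX2, RRM1, ABCG1 and SKA1, a kinetochore protein at -1.98 ± 0.29.

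The study also holds both compounds at IC50. The comparison at that dose uses the same DMSO and ethanol arrays, so the values are given side by side. ABCG1 stood at -1.59 and HMGCS1 at 2.49 between the responses at IC50, against -3.07 and 2.58 at IC20. ABCA1 stood at -1.82 against -3.62, with a Maraviroc change of -0.61 at IC50 and 1.44 at IC20. CYP1B1 stood at -0.97 against 3.36, with a Maraviroc IC50 change of 4.09, and JUNB at -1.13 against 2.16, with a Maraviroc IC50 change of 3.04. The other receptor genes did not turn sign: CYP1A1 stood at 2.12 against 3.18, with a Maraviroc IC50 change of 0.97, and TIPARP at 0.35 against 1.41. The median Maraviroc change over the G2/M list was -4.33 at IC50 and -0.03 at IC20, and the DZH_2 change -1.08 and -1.24. For CYP1B1 the DZH_2 change was 3.12 at IC50 and 3.27 at IC20.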

How the data were processed

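The deposited values are log2 signals per probe set from the authors' processed series file, used as deposited. Background correction, summarisation and normalization are not stated in what was used here. Array medians lay close together, which does not show the method. Of 24351 probe sets, 17709 named 1 gene, 2903 were controls and 3739 had no gene listed in the platform annotation. Where probe sets shared a gene (20 genes), only the brightest on average was kept, giving 17687 genes.

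Groups came from sample titles. In R 4.3.3 (data.table package at 1.17.8), a limma 3.58.1 model of group means with eBayes moderation was fitted to the 12 arrays of 6 replicated MDA-MB-231 groups, so that the groups shared 1 spread per gene (6 residual and 6.61 prior degrees of freedom). All p-values are 2-sided and were adjusted over all genes by Benjamini-Hochberg, with a threshold of 0.05; ± is the standard error and intervals are at 95%. The fit was tested on simulated data. No filter on low signal was applied.

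Genes named were up to 12 each way past the threshold, or the 4 smallest p where fewer passed, for the difference of the responses (6 each way, or 4, for the direct and solvent differences), up to 4 members with the smallest p per list, all sterol synthesis and LXR genes, and CCR genes. The members and the 28 lists (593 genes, 530 measured) were chosen with earlier results of these data known. The rest, listed where they passed with the 8 arrays alone, were named after their values were seen. Lists were described by counts and medians, with no test.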

Additional observations from a re-analysis of the deposited data

Results flagged for a closer look

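A further 4 arrays of the series are titled MCF10, a non-tumorigenic mammary line, although their cell line field names MDA-MB-231, and they entered no comparison above. They hold DZH_2 at both doses, DMSO and untreated cells, 1 array each, with no Maraviroc or ethanol array. The 4 genes with the smallest p in each direction of the difference of the responses, 8 in all, were read there. Of the 4 higher with DZH_2, 3 also stood above both controls at both doses. Of the 4 lower, EZH2 alone lay below both controls at both doses, at 6.39 and 7.45 against 7.58 with DMSO and 7.91 untreated. DZH_2 IC20 minus DMSO was 3.76 for CYP1B1, 3.43 for ACSS2 and 7.89 for HMGCS1 on the log2 scale. HMGCS1 read 5.44 with DMSO, below the negative control level of 5.936, so the size of its difference is uncertain. The same difference was -0.22 for JUNB, -0.64 for ABCA1, 0.53 for ABCG1, -1.19 for EZH2 and 1.83 for CSE1L, against -1.89 for CSE1L by the same subtraction in MDA-MB-231. At IC50 it was -0.14 for EZH2 and -0.53 for CSE1L. CYP1A1 and TIPARP, named with CYP1B1 above, are not among the 8. Their differences from DMSO in these arrays were 0.18 and -0.53 at IC20, and 0.09 and 0.96 at IC50. ABCA1 was near the negative controls on all 4 arrays, and ABCG1 read below their level with DMSO (5.34) and DZH_2 IC20 (5.87). With 1 array each, these differences have no replicate check.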

How the results depend on the processing

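The size of the differences of the responses moved with single arrays: with 1 array left out, 40 of 114 genes moved by over 1.5 times with the same sign, and under the other alternatives 1 did (ABCG5). Over all alternatives PSAT1 ran from -4.70 to -1.34, INSIG1 from 0.91 to 2.28, FDPS from 0.48 to 1.14 and APOE from 0.084 to 1.07. Over 16 alternatives and 1819 gene values of that difference, 1787 kept their direction and their side of the threshold, 10 passed it and 22 turned sign, all 22 where 1 array was left out. Without the Maraviroc IC50 arrays, 4 genes passed for the difference of the responses, 78 directly and 495 for DZH_2 against DMSO. With the 8 arrays alone the counts were 0, 80 and 519, and with array weights 3, 129 and 488. With the replicate block, 2 genes (CYP1B1 and DIAPH3) and 15 genes passed for the first pair, and 204 against DMSO. Deviations of same-numbered arrays correlated at -0.134 to 0.251 between groups, the highest being for Maraviroc IC20 with ethanol. Whether the replicate numbers pair the arrays was not tested. Leaving out 1 array at a time gave 0 to 1 genes for the difference of the responses, 0 to 22 directly and 2 to 131 for DZH_2 against DMSO; the cause was not tested. Maraviroc against ethanol and DMSO against ethanol stayed at 0 under every alternative run.

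The differences of the responses that turned sign when 1 array was left out ranged from -0.16 to 0.13 for ABCG5, -0.0037 to 0.25 for ABCG8, -0.48 to 0.0090 for ACAT2, -0.70 to 0.25 for CCR2, -0.61 to 0.32 for CYP51A1, -0.46 to 0.11 for EBP, -0.26 to 0.49 for LPCAT3, -0.47 to 0.12 for NR1H3, -0.29 to 0.69 for SMPDL3A, -0.081 to 1.44 for SQLE and -0.35 to 0.79 for TMEM45A. None of these had passed the threshold. Genes near the negative controls, such as ABCG5 and ABCG8, have no reliable level, and 2 arrays per group limit what differences can be seen.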
